A study of Mus musculus with 25 samples.

Results

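Selenoproteins are the proteins that carry selenocysteine, the amino acid in which selenium takes the place of the sulfur of cysteine. The 10 members described here are the mouse selenoprotein genes Selenop, Selenow, Selenot, Selenok, Selenof, Selenom, Selenon, Selenos, Msrb1 and Sephs2, taken by symbol and leaving out the glutathione peroxidases. They are 10 of the 35969 genes with a listed transcript. All 10 had a mean scaled TPM of at least 1 and so were among the 11983 genes tested.

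Left ventricular mRNA was sequenced from 25 male mice in 5 groups of 5. WT mice formed the groups WT CNTL, WT HFHS and WT HFHS + Carnosine, and GPx4+/- mice the groups GPx4+/- CNTL and GPx4+/- HFHS. GPx4+/- mice are heterozygous for the gene of glutathione peroxidase 4 (GPx4), a selenoprotein that reduces lipid peroxides. They and their wild type (WT) littermates were kept by backcross to C57BL6/J. The design of the allele is not given in the sources used here. From an age of 8 to 10 weeks, mice ate either a control diet (CNTL, 6% of energy from fat) or a high fat high sucrose diet (HFHS, 35.5% from lard-based fat, 38% from sucrose and 1.5% from cholesterol) for 16 weeks. Carnosine, a dipeptide of beta-alanine and histidine, was dissolved in drinking water (80 mM) and offered after week 7 of the diet. Mice were fasted and injected with dextrose or saline before the heart was taken, and which mice got which is not given in the sources used here.

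In the mRNA of a selenoprotein, selenocysteine (Sec) is written as UGA, a codon that elsewhere ends translation. It is read as Sec with the help of a hairpin in the 3′ untranslated region (the SECIS element), a protein that binds it (SECISBP2), a dedicated elongation factor (EEFSEC) and a dedicated tRNA. SEPHS2, itself a selenoprotein, makes the selenophosphate from which Sec is formed. In selenium shortage the mRNAs of selenoproteins are known to differ in how well they are kept. The heart is sensitive to selenium supply, as cardiomyopathy in selenium deficiency shows.

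The annotated Sec codons place the members in structural groups, which is why the codons are shown. In the lines that follow, each sequence is the coding strand 5′ to 3′ around the first Sec codon of the member's most abundant transcript with an annotated Sec codon (GENCODE mouse release M21, GRCm38), with up to 12 bases on either side, cut at the stop codon, and the Sec codon in capitals.
Selenow: tattgtggagctTGAggctataagccc
Selenot: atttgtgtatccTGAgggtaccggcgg
Selenom: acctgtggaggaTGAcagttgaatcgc
Selenof: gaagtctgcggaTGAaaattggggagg
Selenop: cttcaagccagcTGAtacttgtgtctt
Msrb1: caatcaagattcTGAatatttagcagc
Sephs2: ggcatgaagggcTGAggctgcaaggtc
Selenon: gaccagtcctgcTGAggttccgggcgg
Selenok: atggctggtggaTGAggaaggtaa
Selenos: tcatctggcggcTGAaactaa

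In Selenow, Selenot and Selenom a cysteine codon (tgt) lies 3 codons before the Sec codon, the spacing of the redox motif of proteins with a thioredoxin-like fold. In Selenof the cysteine codon (tgc) lies 2 codons before it and in Selenon 1 codon before it. In Selenop the order is turned, with a cysteine codon 3 codons after the first Sec codon. In Sephs2 it lies 2 codons after. No cysteine codon was found within 4 codons of the Sec codon in Msrb1, Selenok and Selenos.

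The position of the codon also differed. It is codon 13 of 88 in Selenow (chr7:15920464-15920466, minus strand), codon 49 of 195 in Selenot (chr3:58585238-58585240, plus strand) and codon 48 of 145 in Selenom (chr11:3516273-3516275, plus strand). It is codon 93 of 162 in Selenof (chr3:144590645-144590647, plus strand), codon 95 of 116 in Msrb1 (chr17:24740158-24740160, plus strand), codon 63 of 452 in Sephs2 (chr7:127273731-127273733, minus strand) and codon 428 of 557 in Selenon (chr4:134542338-134542340, minus strand). In Selenok (chr14:29973440-29973442, plus strand) 2 codons follow it before the stop codon, and in Selenos (chr7:66088844-66088846, plus strand) 1 codon follows. Selenop is the exception in number, with 10 Sec codons in its 380 codons, of which the first is codon 59 (chr15:3274848-3274850, plus strand) and 9 lie from codon 259 onwards. Its last 4 Sec codons fall within 42 bases (chr15:3279660-3279701, plus strand), shown here with each Sec codon in capitals.
Selenop, last Sec codons: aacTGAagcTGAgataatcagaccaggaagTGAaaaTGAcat

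**Figure D1:**
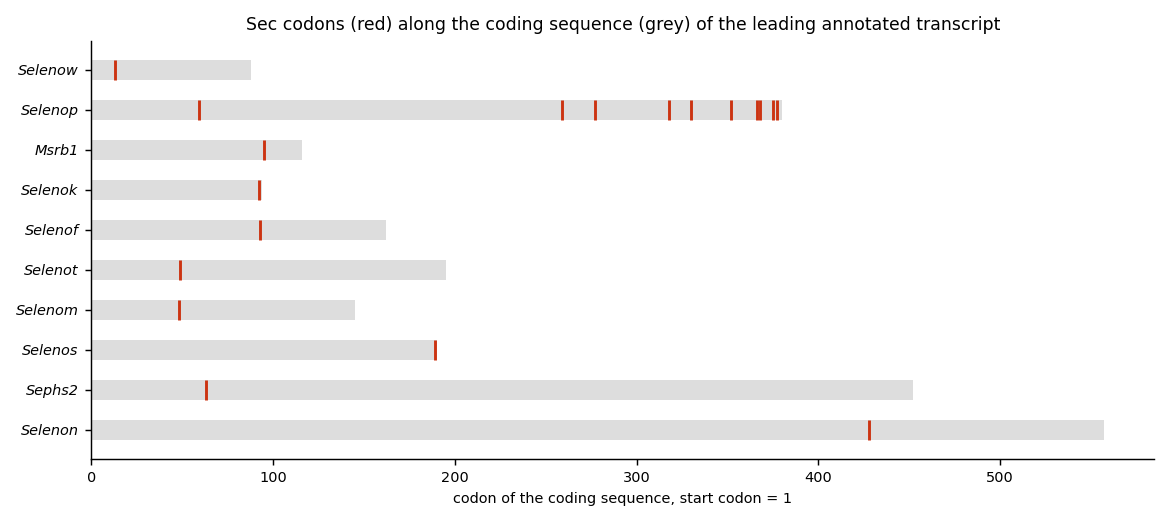
Each grey bar is the coding sequence of a member's most abundant transcript with an annotated Sec codon, drawn to scale in codons (x axis), and each red tick is a Sec codon. Selenop has 10 ticks, 9 of them from codon 259 onwards, Selenow has 1 near the start at codon 13, and Selenok and Selenos have 1 next to the stop codon.

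The deposited unit is TPM, in which reads are divided by the length of their transcript and each library is brought to a total of 1000000, so levels of different genes can be set side by side. Mitochondrially encoded transcripts took 31.3% to 48.7% of a library's TPM, and the share left for other genes varied with them. TPM were therefore added up per gene and then scaled by one median-ratio factor for each library (0.865 to 1.16), which gives the scaled TPM used here. Gpx4 was checked first. It lay between 250.3 and 382.4 scaled TPM in the 10 GPx4+/- mice and between 590.0 and 776.9 in the 15 WT mice, so that no mouse went against its genotype label. Columns were read by the library name in their header. The sample descriptions also give column numbers that point to other columns, and by those numbers Gpx4 would be 250.3 to 776.9 in WT and 323.8 to 733.1 in GPx4+/- mice, which overlap. Gpx4 bears on genotype only, and diet and carnosine labels have no such check. Ventricular cardiomyocyte markers (8 genes) summed to between 44266 and 55570 scaled TPM per mouse. In 5 mice, however, 8 atrial cardiomyocyte markers summed to more than 3 times their group's median, at 4764 in WT CNTL mouse 3, 7596 and 1556 in GPx4+/- CNTL mice 1 and 2, 2825 in GPx4+/- HFHS mouse 4 and 658 in WT HFHS + Carnosine mouse 2, against 64.8 to 320.5 in the other 20 mice. GPx4+/- CNTL mouse 2 also held hepatocyte markers at a sum of 1396, where the other mice had 15.4 to 143.6. GPx4+/- HFHS mice 1 and 3 were next at 143.6 and 96.8, and no WT mouse was above 34.4. The 7 hepatocyte markers tested were all higher in GPx4+/- mice over both diets (median log2 fold change 1.69), and none was called (smallest adjusted p = 0.9997, limma).

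Together the 10 members held 0.062% to 0.085% of each library's deposited TPM. Their levels spanned from Selenow at 178.9 ± 14.8 (SD, n = 25) to Selenon at 9.85 ± 0.749 (SD, n = 25) scaled TPM. The order below Selenow was Selenop (157.7 ± 20.9), Msrb1 (114.8 ± 12.3), Selenok (81.2 ± 3.49), Selenof (57.7 ± 3.94), Selenot (40.0 ± 2.57), Selenom (35.0 ± 5.00), Selenos (20.7 ± 1.84) and Sephs2 (14.0 ± 1.34), each as mean ± SD in scaled TPM over the 25 mice. Selenow was above Selenop in 22 of 25 mice, Selenot above Selenom in 19 and Sephs2 above Selenon in 24. These 3 neighbours overlapped, and each other neighbour in the order was separated in all 25 mice. Among the 11983 genes tested Selenow ranked 455 by mean level and Selenon 5707.

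Selenop encodes selenoprotein P, the plasma protein that liver secretes to carry selenium to other organs, and which other tissues also make. Its scaled TPM in the 5 mice of WT CNTL was 140.9, 143.7, 178.1, 143.0 and 140.7. In GPx4+/- CNTL it was 197.4, 202.1, 160.9, 152.2 and 143.1. In WT HFHS it was 142.8, 151.0, 150.5, 174.2 and 161.0. In WT CNTL 1 mouse and in GPx4+/- CNTL 2 mice thus stood above the rest of the group. In GPx4+/- HFHS the values were 142.3, 175.4, 142.8, 195.2 and 137.6, and in WT HFHS + Carnosine 137.2, 191.1, 153.6, 149.4 and 135.5. All 5 groups overlapped, with the lowest mean in WT CNTL (149.3 ± 16.2, SD, n = 5) and the highest in GPx4+/- CNTL (171.1 ± 26.9, SD, n = 5).

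The high Selenop values sat in the mice with atrial markers. In all 5 of them Selenop was above each remaining mouse of the same group, and over these 5 it ran from 178.1 to 202.1 scaled TPM. The highest of them, 202.1 in GPx4+/- CNTL mouse 2, was also the mouse with hepatocyte markers at a sum of 1396, and liver is the main source of selenoprotein P. With them left out, the mean ± SD for WT mice was 142.1 ± 1.48 on CNTL (n = 4), 155.9 ± 12.1 on HFHS (n = 5) and 143.9 ± 8.95 with carnosine (n = 4). For GPx4+/- mice it was 152.1 ± 8.86 on CNTL (n = 3) and 149.5 ± 17.4 on HFHS (n = 4). The log2 fold change between genotypes on CNTL was 0.19 (95% interval -0.04 to 0.41) with all mice and 0.10 (-0.07 to 0.27) without them, with adjusted p = 0.826 and 0.861 (limma). The part of atrial or liver tissue in the Selenop values was not tested. In bulk tissue, fewer cells of a type and less mRNA per cell cannot be told apart.

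Selenow encodes a small cytosolic thioredoxin-like selenoprotein that is abundant in skeletal muscle and heart. Its scaled TPM was 172.8, 182.4, 191.0, 179.3 and 170.7 in the 5 mice of WT CNTL and 185.0, 181.0, 182.3, 185.3 and 178.7 in WT HFHS. In GPx4+/- CNTL it was 202.6, 174.7, 189.8, 200.02 and 181.5, and in GPx4+/- HFHS 173.9, 168.7, 164.9, 190.5 and 151.4. In GPx4+/- mice 4 of the 5 on HFHS lay below every mouse on CNTL, and the fifth was the mouse with high atrial markers. WT HFHS + Carnosine had the widest spread, with 176.0, 212.8, 158.4, 169.8 and 149.0 scaled TPM.

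Selenot encodes a thioredoxin-like protein of the endoplasmic reticulum membrane. It had 41.0, 41.5, 40.9, 40.6 and 43.0 scaled TPM in WT CNTL and 39.6, 34.3, 38.9, 37.9 and 38.1 in WT HFHS. GPx4+/- CNTL had 37.6, 38.8, 39.4, 37.4 and 40.3, and GPx4+/- HFHS had 36.03, 46.0, 40.8, 40.5 and 43.4. All 5 mice of WT HFHS and all 5 of GPx4+/- CNTL therefore lay below all 5 of WT CNTL, whereas GPx4+/- HFHS lay on both sides of them. WT HFHS + Carnosine had 41.0, 42.4, 40.8, 36.4 and 42.1 scaled TPM, with 4 mice above every mouse of WT HFHS.

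Selenos and Selenok encode membrane proteins of the endoplasmic reticulum that take part in the removal of misfolded proteins, through VCP and the derlins. Selenos had 22.0, 23.8, 21.9, 22.2 and 21.0 scaled TPM in WT CNTL and 21.7, 20.3, 17.4, 18.3 and 20.4 in WT HFHS, where 4 of 5 mice were below every WT CNTL mouse. In GPx4+/- CNTL it had 22.5, 22.3, 21.4, 22.3 and 19.2, and in GPx4+/- HFHS 17.9, 20.9, 19.1, 21.5 and 20.9, which overlap. WT HFHS + Carnosine had 21.3, 23.1, 17.8, 20.1 and 17.3. Selenok, needed also for protein palmitoylation with ZDHHC6, was the steadiest member. Its group means lay between 80.5 ± 4.09 (SD, n = 5) and 81.7 ± 2.71 (SD, n = 5) scaled TPM, and its highest mouse was 1.16 times its lowest.

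Selenof and Selenom encode thioredoxin-like proteins of the lumen of the endoplasmic reticulum, the first a partner of the glycoprotein folding sensor UGGT. Selenof group means lay between 56.0 ± 4.03 (SD, n = 5) in WT HFHS and 58.6 ± 2.88 (SD, n = 5) in WT CNTL. Selenom was the most variable member, with a within-group coefficient of variation of 14.2% on average and single mice from 28.2 to 47.6 scaled TPM. Its highest values were 47.6 in GPx4+/- CNTL mouse 1 and 46.7 in WT CNTL mouse 3, both mice with high atrial markers. Over the members this coefficient had a median of 7.44%, and over all genes tested 10.3%.

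Selenon encodes the endoplasmic reticulum protein whose mutations cause congenital muscle disease, and which acts on calcium uptake by SERCA2. It had 9.62, 9.32, 9.49, 9.42 and 9.12 scaled TPM in WT CNTL and 10.1, 10.7, 9.12, 12.3 and 9.77 in WT HFHS, so that 4 of 5 WT HFHS mice were above every WT CNTL mouse. The highest value, 12.3 in WT HFHS mouse 4, was in the mouse with the highest sums of fibroblast markers (753.9) and smooth muscle markers (1239). The mean ± SD was 9.55 ± 0.483 for GPx4+/- CNTL, 9.94 ± 0.434 for GPx4+/- HFHS and 9.96 ± 0.828 with carnosine (n = 5 each).

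Msrb1, the selenium-dependent methionine sulfoxide reductase, had group means from 111.1 ± 4.79 (SD, n = 5) in GPx4+/- CNTL to 118.7 ± 9.78 (SD, n = 5) in WT HFHS. Single mice reached 141.5 in GPx4+/- HFHS mouse 4 and 139.2 in WT HFHS + Carnosine mouse 2. Sephs2, the selenophosphate synthetase, had group means from 13.5 ± 0.802 (SD, n = 5) in WT HFHS to 14.7 ± 2.48 (SD, n = 5) in GPx4+/- CNTL. The spread of the latter group came with 1 value, 18.9 in the mouse that held hepatocyte markers.

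**Figure D2:**
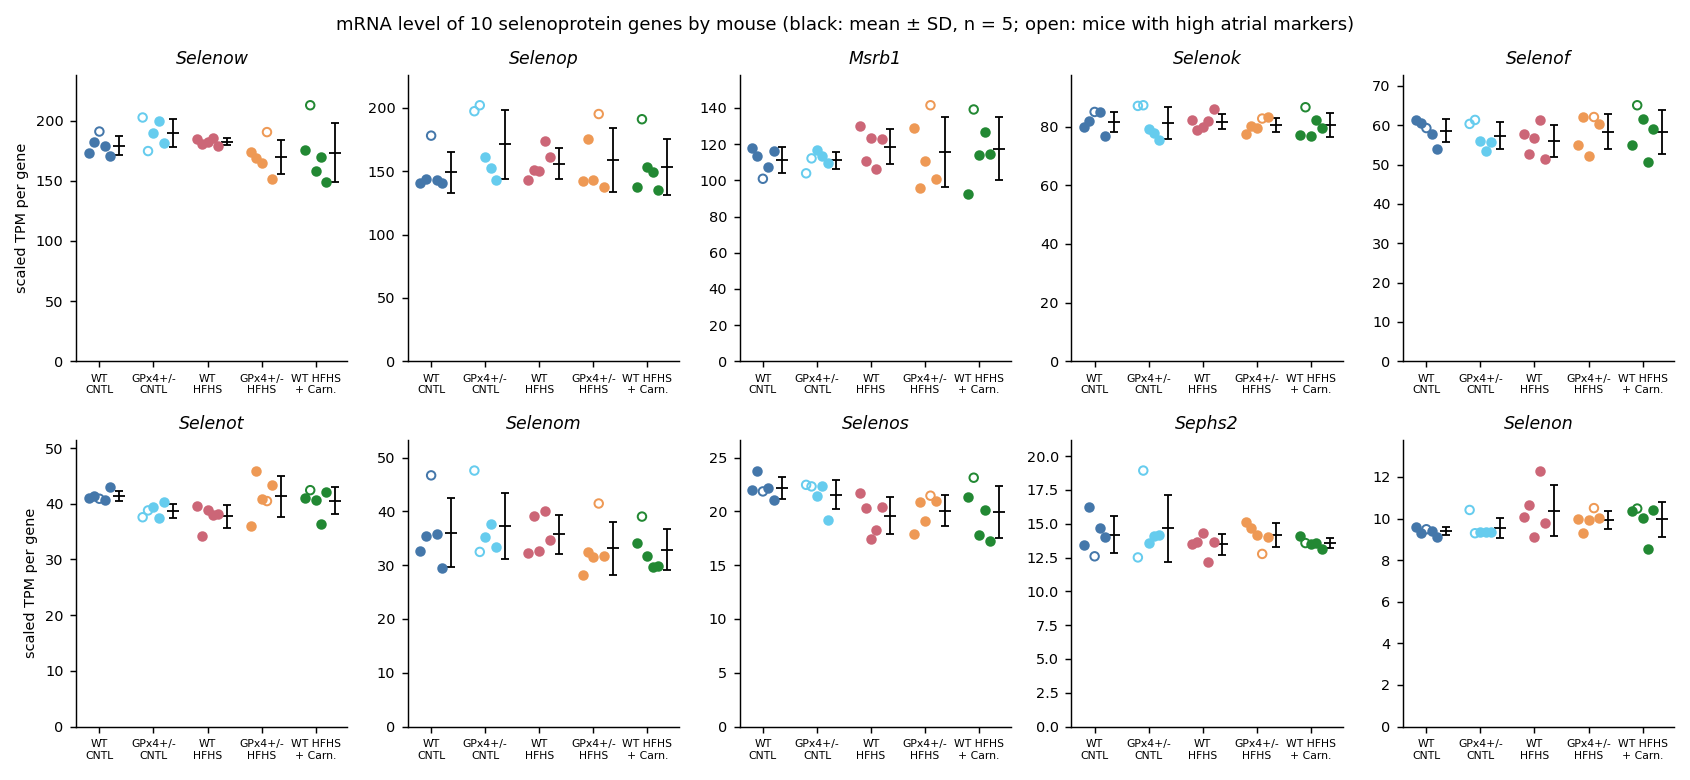
Scaled TPM per gene (y axes, each from 0) in every mouse of the 5 groups for the 10 members, ordered by mean level. Black marks give the mean and SD of 5 mice, and open circles are the 5 mice with high atrial markers, which are the highest of their group for Selenop in 4 groups. Of the 50 comparisons of a member between 2 groups, 2 do not overlap, both for Selenot. There all WT HFHS and all GPx4+/- CNTL mice are below all WT CNTL mice. Of all genes tested, 4.51% and 0.926% do not overlap in these 2 comparisons.

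To ask whether the diet, the Gpx4 genotype, their combination or carnosine moved these genes, 8 contrasts were tested with limma over all 11983 genes, with p-values adjusted by the Benjamini-Hochberg method. No member had an adjusted p under 0.05 in any of them. In comparison, the share of all genes called was 1.19% for diet in WT (142 genes), 3.34% for diet in GPx4+/- (400), 8.33% for diet over both genotypes (998), 0.0501% for genotype on CNTL (6), 0.0501% for genotype on HFHS (6), 0.0584% for genotype over both diets (7), 0.0% for diet by genotype and 0.0% for carnosine in WT HFHS. For diet by genotype, 856 genes had an unadjusted limma p under 0.05, and for carnosine 504. For a set of 10 genes, each of these shares comes to less than 1 gene.

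The estimates were small as well as uncalled. Over the 80 pairs of member and contrast the largest log2 fold change was 0.22 in size, and in 1 pair the 95% interval passed 0.5 (Selenom, diet by genotype, lower bound -0.52). For diet in WT the intervals of all members lay within changes of -19.3% and 22.3%, for diet in GPx4+/- within -25.2% and 16.6%, for genotype on CNTL within -13.5% and 33.3%, for genotype on HFHS within -22.5% and 19.1%, and for carnosine within -19.6% and 17.0%. A change of 2-fold in any member lies outside these bounds. The median log2 fold change of the members was 0.0001 for diet in WT, -0.02 for diet in GPx4+/-, -0.02 for diet over both genotypes, 0.01 for genotype on CNTL, -0.002 for genotype on HFHS and -0.02 for carnosine, beside medians over all genes tested of 0.0002, -0.002, -0.002, 0.0005, -0.003 and -0.001.

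For diet in WT, 3 of 10 members had an unadjusted p under 0.05, where 16.5% of all genes did. They were Selenos, Selenot and Selenon, and they did not point the same way. For Selenos the mean was 19.6 ± 1.72 (SD, n = 5) scaled TPM in WT HFHS and 22.2 ± 1.00 (SD, n = 5) in WT CNTL. Its log2 fold change was -0.18 (95% interval -0.31 to -0.04), with adjusted p = 0.17 (limma). For Selenot the means were 37.8 ± 2.08 and 41.4 ± 0.945 (SD, n = 5 each), a log2 fold change of -0.13 (-0.24 to -0.02) with adjusted p = 0.23 (limma). For Selenon they were 10.4 ± 1.21 and 9.39 ± 0.187 (SD, n = 5 each), a log2 fold change of 0.13 (0.004 to 0.26) with adjusted p = 0.286 (limma). Without WT HFHS mouse 4, the mouse with the highest fibroblast marker sum, the Selenon value was 0.07 with adjusted p = 0.57 (limma). By a two-sided exact permutation test of the 5 against 5 mice the p was 0.0159 for Selenos, 0.00794 for Selenot (the smallest this design allows) and 0.0794 for Selenon. The other 7 members had log2 fold changes between -0.07 and 0.09 for diet in WT.

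For diet in GPx4+/- mice the 1 member with an unadjusted p under 0.05 was Selenow, where 18.4% of all genes had one. Its mean was 169.9 ± 14.2 (SD, n = 5) scaled TPM in GPx4+/- HFHS and 189.7 ± 11.9 (SD, n = 5) in GPx4+/- CNTL. The log2 fold change was -0.16 (95% interval -0.27 to -0.05) with adjusted p = 0.111 (limma), and the exact permutation p was 0.0476. Without GPx4+/- HFHS mouse 4, which had high atrial markers, the log2 fold change was -0.20 with adjusted p = 0.0346 (limma). Without all 5 mice with high atrial markers it was -0.21 with adjusted p = 0.0464 (limma), with 3 mice on CNTL and 4 on HFHS, where 2.28% of all genes were called. Selenom was then at -0.19 with adjusted p = 0.284 (limma), the other member with an unadjusted p under 0.05. With TPM as deposited and all mice, Selenow was at -0.27 with adjusted p = 0.075 (limma).

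Over both genotypes, Selenos came nearest to a call, with a log2 fold change of -0.14 (95% interval -0.23 to -0.04) on HFHS and adjusted p = 0.0614 (limma). Its diet difference was -0.18 in WT and -0.10 in GPx4+/- mice, and the difference between these was 0.08 (-0.11 to 0.26). Selenon had 0.09 (0.003 to 0.18) over both genotypes with adjusted p = 0.19 (limma), and 0.04 with TPM as deposited. The remaining 8 members lay between -0.08 and 0.07. Without the 5 mice with high atrial markers, Selenos was at -0.13 and Selenow at -0.08, with adjusted p = 0.139 and 0.165 (limma), and these were the 2 members with an unadjusted p under 0.05, as against 24.1% of all genes.

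Between genotypes, the 1 member with an unadjusted p under 0.05 was Selenot on HFHS, where 4.56% of all genes had one. Its mean ± SD was 41.3 ± 3.71 scaled TPM in GPx4+/- HFHS against 37.8 ± 2.08 in WT HFHS (n = 5 each), a log2 fold change of 0.13 (95% interval 0.01 to 0.24) with adjusted p = 0.979 (limma) and an exact permutation p of 0.119. On CNTL the same gene went the other way, with 38.7 ± 1.21 (SD, n = 5) in GPx4+/- CNTL and 41.4 ± 0.945 (SD, n = 5) in WT CNTL. The groups did not overlap, and the exact permutation p was 0.00794. The limma log2 fold change, which shares its estimate of spread with the other groups, was -0.10 (-0.21 to 0.02) with adjusted p = 0.826. Over both diets all members lay between -0.03 and 0.10 on the log2 scale. Without the 5 mice with high atrial markers, the members with an unadjusted limma p under 0.05 were Selenow (-0.15) and Selenom (-0.20) on HFHS and Selenow (0.11) on CNTL, with the smallest adjusted p at 0.611 and 0.71, and Selenot on HFHS was 0.13 with adjusted p = 0.683 (limma). Of all genes 7.39% on HFHS and 6.94% on CNTL then had an unadjusted p under 0.05.

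Counting groups that did not overlap gave few members. It was 1 of 10 members for diet in WT, beside 4.51% of all genes, 0 of 10 for diet in GPx4+/-, beside 4.47%, and 1 of 10 for genotype on CNTL, beside 0.926%. It was 0 of 10 for genotype on HFHS, beside 0.726%, and 0 of 10 for carnosine, beside 0.609%. The 1 member was Selenot in both cases, and both comparisons use the same 5 WT CNTL mice, whose values spanned only 40.6 to 43.0 scaled TPM.

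The diet difference was compared between genotypes directly. For Selenot it was -0.13 in WT and 0.09 in GPx4+/- mice, a difference of 0.22 (95% interval 0.06 to 0.38) with adjusted p = 0.681 (limma). For Selenow it was 0.03 and -0.16, a difference of -0.19 (-0.35 to -0.03), also with adjusted p = 0.681 (limma), and -0.30 with TPM as deposited. No gene of the table passed this test, and of all genes 7.14% had an unadjusted p under 0.05, as against these 2 of 10 members. Without the 5 mice with high atrial markers there were 3 such members, with Selenow at -0.26 (-0.40 to -0.11), Selenot at 0.22 (0.02 to 0.42) and Selenom at -0.28 (-0.53 to -0.04, against -0.17 with all mice), and the smallest adjusted p was 0.324 (limma), where 9.76% of all genes had an unadjusted p under 0.05.

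Carnosine was compared with no carnosine in the 10 WT HFHS mice. No member had an unadjusted p under 0.05, and the smallest adjusted p was 0.947 (limma), for Selenot and Selenom. Log2 fold changes lay between -0.12 (Selenom) and 0.10 (Selenot). The interval for Selenop was -0.23 to 0.17, for Selenow -0.26 to 0.09 and for Selenos -0.17 to 0.21. With WT HFHS + Carnosine mouse 2 (high atrial markers) left out, Selenow averaged 163.3 ± 12.0 (SD, n = 4) against 182.4 ± 2.75 (SD, n = 5) scaled TPM in WT HFHS, a log2 fold change of -0.16 (-0.28 to -0.04) with adjusted p = 0.81 (limma). Selenom was then at -0.18 (-0.36 to -0.01), also with adjusted p = 0.81 (limma), and these 2 members had an unadjusted limma p under 0.05, as 5.74% of all genes did.

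**Figure D3:**
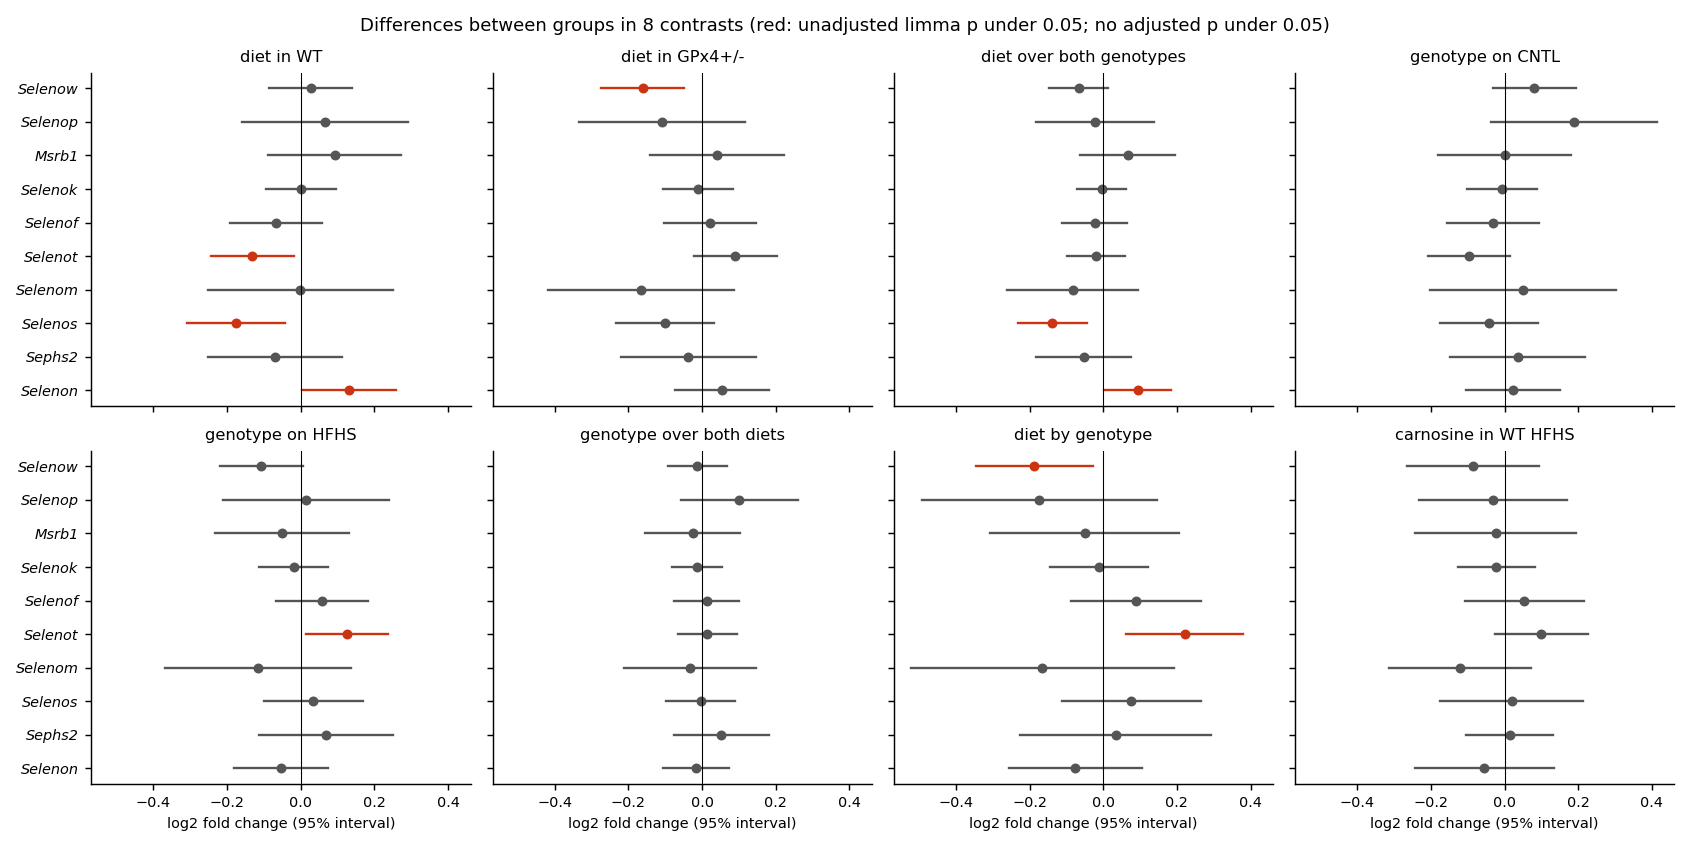
Log2 fold change of each member (x axis, dot) with its 95% interval (line) in the 8 contrasts, on the scale log2(scaled TPM + 0.5). Red marks the 9 pairs of member and contrast with an unadjusted limma p under 0.05. All estimates lie between -0.19 and 0.22 and no adjusted p is under 0.05.

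The gene sums hide a difference in transcripts. Of the TPM of Selenok, 8.06% on average (5.82% to 10.5% over the 25 mice) was on Selenok-201, the protein-coding transcript and the only one of its 3 with an annotated Sec codon. The rest was on Selenok-203, annotated as a target of nonsense-mediated decay (46.1%), and Selenok-202, a transcript without an annotated coding sequence (45.8%). Selenok-201 had a mean of 6.55 TPM, below Selenon-201 at 9.81, so the order of levels given above holds for gene sums only. In Selenof, 57.5% was on Selenof-201, which has an annotated Sec codon, and 41.6% on Selenof-203, which has no annotated coding sequence. The bases of the Sec window printed above also stand in Selenok-202, Selenok-203 and Selenof-203, so these transcripts do hold the TGA and differ from the first in other parts. In the other 8 members 91.4% (Selenos) or more of the TPM was on transcripts with an annotated Sec codon, and in Selenow, Msrb1 and Sephs2 all of it.

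The 9 transcripts with a mean share between 5% and 95% were compared in the 5 contrasts of 2 groups by the exact permutation test. None of these 45 tests gave a p under 0.05, and the smallest was 0.103 (adjusted 0.955). Selenok-201 is 1678 bases long, against 799 and 513 for the other 2 transcripts. How TPM divides reads between transcripts that share most of their sequence is an estimate, and the shares have no counting error here.

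**Figure D4:**
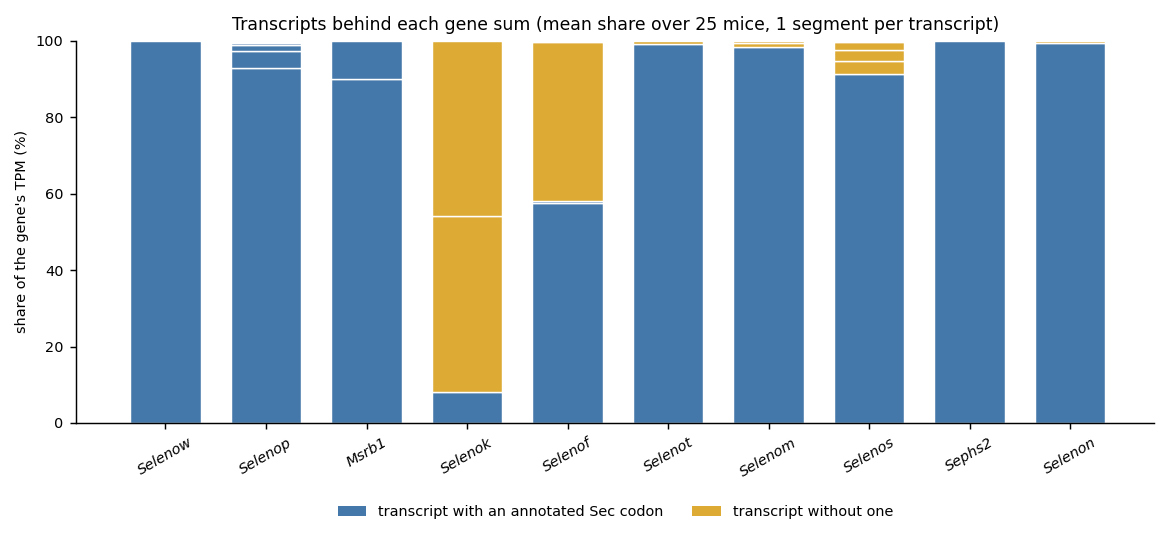
Mean share over 25 mice of each gene's TPM (y axis, percent, bars from 0) on transcripts with an annotated Sec codon (blue) and without one (yellow), with 1 segment per transcript. Selenok has 8.06% and Selenof 58.1% in blue, and the other 8 members 91.4% or more.

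Other genes could share reads with a member. Copies for which no TPM was used here were Gm48228 (98.3% identical to Selenok over 404 bases, opposite strand), Selenok-ps1 (91.9% over 727 bases) and Gm44729 (identical to Sephs2 over 792 bases, opposite strand), and how their reads were counted is not known. The transcripts of Selenok match those of the listed processed pseudogenes Selenok-ps4 to Selenok-ps8 over 280 to 283 bases at 94.3% to 97.9% identity, but each of these was listed at 0.0139 TPM or less on average. Selenot-ps, 92.7% identical over 593 bases, was listed at 0.0. Selenop overlaps Ccdc152 on the other strand by 439 bases at its end, and Ccdc152 had a mean of 1.17 TPM. The library kit keeps the strand, but whether the quantification used it is not given in the sources used here, so these 2 genes cannot be told apart with certainty in the shared bases.

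The remaining selenoproteins and the machinery were read from lists. Of the 14 other selenoproteins in the list (peroxidases, thioredoxin reductases, deiodinases and others), 9 were tested, and Gpx4 was the only one called in any contrast, lower in GPx4+/- mice (log2 fold change -1.08 over both diets, adjusted p = 1.59e-09 from limma). Dio1, Dio2, Dio3, Gpx2 and Selenov had a mean scaled TPM under 1 and were not tested. Of the 13 genes of Sec synthesis and decoding, all tested, 1 was called, for diet over both genotypes, where 8.33% of all genes were called, so the count is near the background. Secisbp2l, a paralog of the SECIS binding protein gene, was lower on HFHS over both genotypes, with a log2 fold change of -0.15 (SE 0.039) and adjusted p = 0.0238 (limma). It had 7.31 ± 0.602, 7.70 ± 0.402, 6.59 ± 0.223 and 6.85 ± 0.27 scaled TPM (SD, n = 5 each) in WT CNTL, GPx4+/- CNTL, WT HFHS and GPx4+/- HFHS. Without the 5 mice with high atrial markers its log2 fold change was -0.13 with adjusted p = 0.112 (limma), and over all alternatives it lay between -0.20 and -0.13. The median log2 fold change of this list over both genotypes was -0.02, beside -0.002 for all genes. Of the receptors for selenoprotein P, Lrp8 and Lrp2 were under 1 scaled TPM, and Lrp1, which was tested, was not called.

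A diet difference was called in enzymes that reduce methionine sulfoxide without selenium. Msra and Msrb3, which reduce the other and the same stereoisomer of methionine sulfoxide, rose on HFHS in GPx4+/- mice and over both genotypes, and Msrb2, the third gene of the list, was not called. Of all genes 3.34% and 8.33% were called in these contrasts. Msra had 33.4 ± 2.45 (SD, n = 5) scaled TPM in GPx4+/- CNTL and 40.6 ± 2.70 (SD, n = 5) in GPx4+/- HFHS, a log2 fold change of 0.28 (SE 0.053) with adjusted p = 0.00665 (limma). Msrb3 had 35.7 ± 1.69 (SD, n = 5) and 44.2 ± 3.74 (SD, n = 5), a log2 fold change of 0.30 (SE 0.066) with adjusted p = 0.0163 (limma). In WT mice Msra had 37.6 ± 1.09 and 40.0 ± 1.67 and Msrb3 38.4 ± 2.55 and 43.7 ± 4.09 (SD, n = 5 each) on CNTL and HFHS, and neither was called. The diet difference did not pass a test between genotypes for any gene of this list (smallest adjusted p = 0.681, limma). Over both genotypes the log2 fold changes were 0.18 for Msra (adjusted p = 0.0055, limma) and 0.24 for Msrb3 (adjusted p = 0.00342, limma). With TPM used as deposited, without scaling, these 4 calls were lost, with adjusted p between 0.0797 and 0.236 (limma) and the direction kept, and the log2 fold changes in GPx4+/- mice were 0.17 for Msra and 0.19 for Msrb3. In GPx4+/- mice both calls were also lost with only the 2 groups in the fit, and that of Msrb3 without GPx4+/- CNTL mouse 1, without GPx4+/- HFHS mouse 5 or without the 5 mice with high atrial markers, with log2 fold changes of 0.27 or more. Over all alternatives the adjusted p for diet in GPx4+/- mice lay between 0.00347 and 0.236 for Msra and between 0.00902 and 0.213 for Msrb3. Msrb1 itself had a log2 fold change of 0.07 over both genotypes (95% interval -0.06 to 0.19).

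Of 16 listed endoplasmic reticulum partners of the members (such as Vcp, Derl1, Derl2, Uggt1, Zdhhc6 and Atp2a2), 14 were tested and none was called in any contrast, with 2 at an unadjusted limma p under 0.05 for diet in WT, 2 for diet in GPx4+/- and 3 over both genotypes. Of 18 listed genes of the unfolded protein response, 17 were tested and none was called, with 2, 1 and 3 at an unadjusted limma p under 0.05 in the same contrasts. Of all genes, 16.5%, 18.4% and 24.5% had one. Their median log2 fold changes for diet over both genotypes were -0.006 and -0.02, beside -0.002 for all genes.

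Markers of cell types were read in the same fit. Over both genotypes 2 of 8 fibroblast markers were called higher on HFHS, Lum (log2 fold change 0.55, adjusted p = 0.0395, limma) and Pdgfra (0.29, adjusted p = 0.0472, limma). All 8 had a positive log2 fold change, with a median of 0.31. Of 8 ventricular cardiomyocyte markers 2 were called lower, Myom2 (-0.80, adjusted p = 0.000324, limma) and Myh6 (-0.17, adjusted p = 0.0314, limma). The median of these 8 was -0.13, and 1 of them was positive. Of all genes 8.33% were called in this contrast. The summed fibroblast markers had medians of 401.3 and 438.0 scaled TPM in WT CNTL and GPx4+/- CNTL and 450.3 and 495.3 in WT HFHS and GPx4+/- HFHS. The part of these shifts in the values of the members was not tested.

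Within groups, the members followed different companions. For each member, the gene with the most similar variation was taken as the one with the highest Pearson r of log2 values over the 25 mice after the mean of each group was taken off. Each r is the highest over all genes tested, and both genes come from the same libraries, so these values are descriptions. The pairs were Selenop with Rnase4 (r = 0.92, Spearman rho = 0.90), Selenom with Lrrn2 (0.91, 0.76), Selenot with mt-Nd1 (0.91, 0.88), Selenow with Rps9 (0.86, 0.77), Selenon with Rara (0.85, 0.79), Msrb1 with Cops6 (0.85, 0.87), Selenof with Rab8b (0.83, 0.82), Sephs2 with Pno1 (0.81, 0.69), Selenos with Rpl30 (0.79, 0.76) and Selenok with Hnrnph2 (0.73, 0.73). With the 2 mice farthest from the member's median left out, r stayed between 0.69 and 0.90. In the 20 mice without high atrial markers it was 0.84 for Selenop and Rnase4, 0.78 for Selenom and Lrrn2, and 0.54 for Sephs2 and Pno1.

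Selenot stood apart in its relation to the mitochondrial genome. Its log2 scaled TPM followed the mitochondrially encoded share of a library's TPM with r = 0.90 (rho = 0.85, n = 25 mice, group means taken off), 0.83 without the 2 libraries farthest in that share and 0.92 in the 20 mice without high atrial markers. Of 11970 nuclear genes tested this was the second highest r, and the median was -0.02. Next among the members was Selenof with 0.41, and the other 8 lay between -0.22 and 0.10. In WT mice the mean mitochondrial share was 39.4% on CNTL, 37.9% on HFHS and 40.2% with carnosine, where Selenot averaged 41.4, 37.8 and 40.5 scaled TPM. In GPx4+/- mice it was 38.3% on CNTL and 41.3% on HFHS, where Selenot averaged 38.7 and 41.3. WT HFHS mouse 2 had both the lowest share (31.3%) and the lowest Selenot (34.3), and GPx4+/- HFHS mouse 2 both the highest share (48.7%) and the highest Selenot (46.0). The part of this share in the group differences of Selenot was not tested. With mitochondrially encoded genes taken out before scaling, the Selenot difference for diet in WT was again -0.13. Median-ratio scaling removes any factor common to a library, so this setting could hardly move the value. It is therefore no test of the share. With TPM as deposited, its diet by genotype difference was 0.11 in place of 0.22 and its genotype difference on HFHS 0.05 in place of 0.13.

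Selenom followed the summed fibroblast markers (r = 0.81, rho = 0.76, n = 25 mice, group means taken off, and 0.75 in the 20 mice without high atrial markers) and the summed macrophage markers (r = 0.80, rho = 0.75, and 0.73 in the 20 mice). Selenop followed the fibroblast markers with r = 0.72 (rho = 0.63), and 0.55 in the 20 mice. With the atrial markers its r was 0.81 (rho = 0.76) over the 25 mice. In the 20 mice, which lack the high atrial values, it was 0.19. Sephs2 had r = 0.64 (rho = 0.28) with the hepatocyte markers, which was 0.13 without the 2 mice farthest in those markers. The member and the markers come from the same libraries, so these values are descriptions too.

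**Figure D5:**
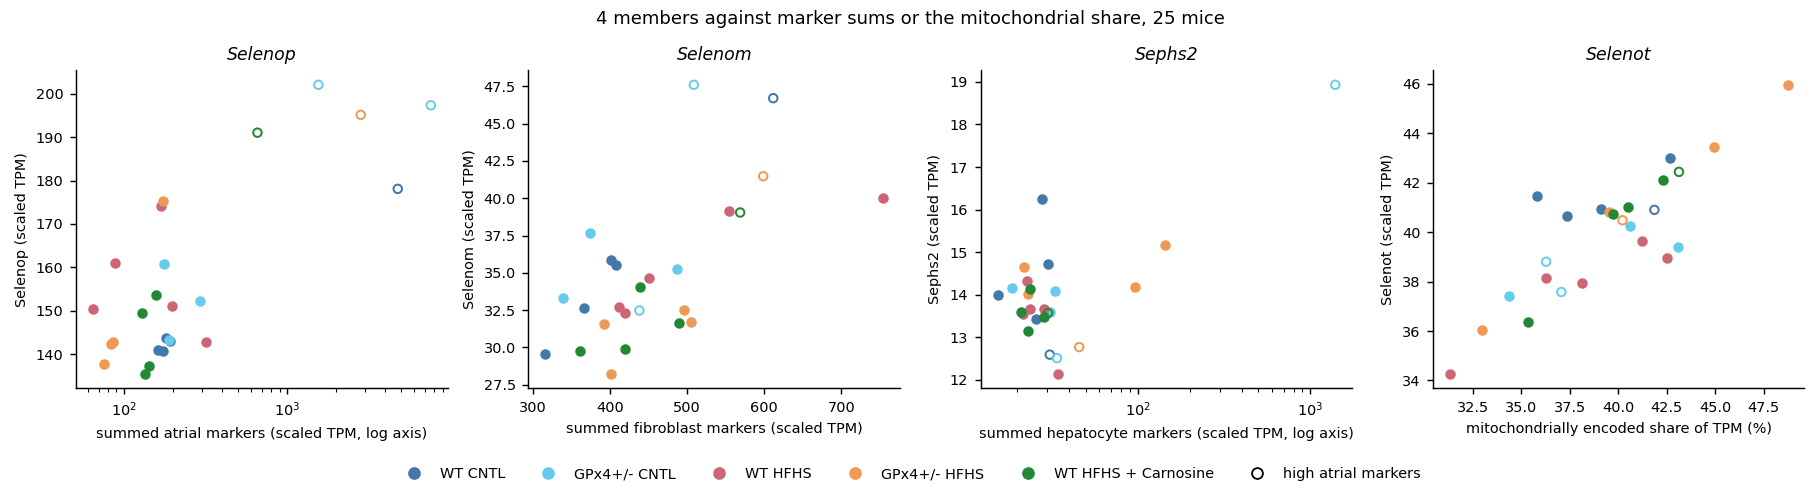
Scaled TPM (y axes) of Selenop against summed atrial markers, Selenom against summed fibroblast markers, Sephs2 against summed hepatocyte markers, and Selenot against the mitochondrially encoded percent of TPM, with 1 point per mouse, colours for groups and open circles for the 5 mice with high atrial markers. The 5 open circles lie between 178.1 and 202.1 for Selenop, 1 mouse stands alone for Sephs2 at 18.9, and Selenot goes from 34.3 at the lowest mitochondrial share to 46.0 at the highest.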

How the data were processed

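The authors deposited TPM per transcript for 25 libraries of left ventricular mRNA (stranded, paired-end), each summing to 1000000. The submitters' processing notes name kallisto 0.43.1, sleuth 0.30.0 and GRCm38 without roles. TPM do not keep each library's read depth, so no counting error is given. Libraries were matched to mice by the library name in each column header, since the column numbers in the sample descriptions disagree with the headers. Of 119215 transcripts, 116772 matched GENCODE M21 and 2443 did not. TPM were summed per gene, divided by median-ratio factors over 11879 genes (mean TPM of at least 1 and above 0 in all libraries), and taken as log2 of scaled TPM plus 0.5, which understates changes of low genes. Genes with a mean of at least 1 were tested with limma 3.58.1 (R 4.3.3, empirical Bayes with trend, Benjamini-Hochberg over 11983 genes, called at an adjusted p under 0.05). The 4 groups without carnosine were fitted together, and carnosine on the 10 WT HFHS mice. The test was tried on simulated data. Exact permutation tests were two-sided. Similar transcripts were found with blastn 2.17.0 (at least 90% identity over 150 bases).

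Log2 fold changes are given singly for pairs of member and contrast with an unadjusted p under 0.05, and of the listed pathway genes those called are named. Selenot on CNTL and the Selenop, Selenow, Selenos, Selenom and Msrb1 differences outside this rule, the relation of Selenot to the mitochondrial share and those to marker sums were chosen once their values were known. The members and lists were chosen with earlier results of these data known. Settings varied one at a time were the pseudocount (0.1), the filter (none, or a mean of 5), scaling (none, or quantile normalization), array weights, the replicate number as a block, other sets of mice in the fit, only protein_coding transcripts, no mitochondrially encoded genes and each mouse left out. Scaling over all genes above 0 (15018) and leaving out the 5 mice with high atrial markers were chosen after seeing the data.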

Additional observations from a re-analysis of the deposited data

Results flagged for a closer look

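In 5 of 50 member and group combinations, 1 mouse was farther from the rest of its group than Dixon's test at 95% allows for 5 values, where chance gives about 1 in 20 and 6.35% of all combinations of a tested gene and a group were as far. Selenop in WT CNTL was 178.1 scaled TPM in mouse 3, with the other 4 mice between 140.7 and 143.7, and this mouse had high atrial markers. Selenon in GPx4+/- CNTL was 10.4 in mouse 1, also a mouse with high atrial markers, with the others between 9.29 and 9.35. Sephs2 in GPx4+/- CNTL was 18.9 in mouse 2, the mouse with hepatocyte markers at a sum of 1396, with the others between 12.5 and 14.2. In WT HFHS + Carnosine, mouse 4 had 36.4 for Selenot, with the others between 40.8 and 42.4, and 8.52 for Selenon, with the others between 10.0 and 10.5. Its mitochondrial share of 35.4% was the lowest of its group. The part of these measures in the single values was not tested.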

How the results depend on the processing

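The count of members called was 0 in all 8 contrasts as reported, and all but 6 of the 250 alternatives kept it. For diet in GPx4+/- it was 1 (Selenow) with quantile normalization (log2 fold change -0.21, adjusted p = 0.0376, limma) and without the 5 mice with high atrial markers, and between 0 and 1 with each mouse left out, the 1 being without GPx4+/- HFHS replicate 4. For diet over both genotypes it was 1 (Selenos) with array weights (-0.15, adjusted p = 0.0419, limma) and between 0 and 1 with each mouse left out, the 1 being without GPx4+/- CNTL replicate 5 (adjusted p = 0.0341) or without WT HFHS replicate 1 (adjusted p = 0.0352, limma). With quantile normalization 364 of the 11983 genes were called for diet in GPx4+/-. Without the 5 mice it was 273, and without GPx4+/- HFHS replicate 4 it was 368. Over both genotypes 1261 genes were called with array weights, 904 without GPx4+/- CNTL replicate 5 and 992 without WT HFHS replicate 1. Over all alternatives of each result, the adjusted p lay between 0.0346 and 0.258 for Selenow and between 0.0341 and 0.139 for Selenos. The cause of these shifts was not tested. None of the 9 single log2 fold changes reversed in 293 alternatives. The 8 calls of listed pathway genes held in 250 of 260. With the replicate number as a block, 0 members were called in each contrast. These values gave no sign that the numbers pair the mice. Deviations of same-numbered mice correlated between -0.34 and 0.23, over 0.1 in 5 of 25 pairs, and 4 of 25 mice correlated best with their own number. TPM do not hold the read depth of each library, so no counting error can be set on low transcripts.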
